A study of Mus musculus with 2 samples.

Results

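The spermatogonia described here were 1163 of the 29008 cells kept from dissociated mouse testis, 811 of 15139 in a wild type (WT) library and 352 of 13869 in an Nsun7 knockout (KO) library. They were chosen by the number of marker genes detected. Cells with fewer than 200 genes or above 20% mitochondrial counts were dropped, and a remaining cell was a member when the protamines and transition proteins Prm1, Prm2, Tnp1 and Tnp2 gave under 10% of its counts, when 3 or more of 8 spermatogonium genes (panel A) had a count, and when that number was larger than in a leptotene to zygotene panel (panel B) and in a pachytene panel (panel C) of 8 genes each. Panel A held Uchl1, Dmrt1, Crabp1, Rhox13, Esx1, Sohlh1, Sall4 and Dnmt3b. The same rule with the panels exchanged gave 1018 WT and 395 KO cells for panel B and 4252 WT and 1346 KO cells for panel C, called leptotene to zygotene cells and pachytene cells here. Both libraries came from the testis of adult mice and were prepared with a DNBelab C Series single-cell kit, 1 library per genotype. The labels give no strain, exact age, number of animals, or position of the deletion within Nsun7. With 1 library per genotype there is no test across samples, so intervals are exact 95% intervals of counting error only, and a difference between the genotypes cannot be told apart from a difference between these 2 libraries.

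Spermatogonia are the mitotic germ cells at the base of the seminiferous tubule. The undifferentiated ones hold the stem cells, which depend on glial cell line-derived neurotrophic factor (GDNF) from Sertoli cells and sense it through the co-receptor Gfra1 and the kinase Ret. Retinoic acid then starts differentiation, marked by Stra8 and by the receptor Kit, and after several more divisions the cells enter meiosis, in which the X chromosome becomes silent by pachytene. Nsun7 belongs to the NOL1/NOP2/Sun family of putative RNA cytosine methyltransferases.

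The members were a small share of each suspension. They made up 5.36% of kept WT cells (interval 5.0 to 5.73) and 2.54% of kept KO cells (2.28 to 2.81), a KO to WT ratio of 0.474 (0.417 to 0.538). A stricter cell filter (500 genes, 10% mitochondrial counts) left 459 WT and 119 KO members and moved this ratio to 0.278 (0.225 to 0.341). The order depended on the denominator. Per leptotene to zygotene cell the ratio was 1.12 (0.984 to 1.27), and per pachytene cell it was 1.37 (1.21 to 1.56). The WT members had a median of 6160 counts and 2929 genes per cell and the KO members 7596.5 counts and 3348 genes, and their counts summed to 7066448 and 3705634. Mitochondrial genes gave a median of 9.55% of their counts in WT and 11.2% in KO, compared with 10.3% and 11.4% in leptotene to zygotene cells and 1.34% and 1.02% in pachytene cells. A doublet caller marked 31 WT and 9 KO members, which were kept. The libraries shared 2168 cell names, which are running numbers given to each library separately and not barcodes. Prm2, a gene of condensing spermatids, had a count in 99.1% of WT and 99.7% of KO members after each cell was thinned to 2000 counts, and the source of these counts was not tested.

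The rule follows depth as well as identity. Among WT members 140 had 3 of the 8 genes, at a median of 2856.5 counts per cell, and 22 had all 8, at a median of 24180.5. In KO these numbers were 53 cells at 3667 and 7 cells at 18507. Just inside the threshold, WT members with 3 panel A genes had Uchl1 at 640, the pluripotency-linked RNA-binding protein gene Lin28a at 67.8 and Kit at 48.7 CPM (counts scaled to a total of 1e+06 per sum of cells). Just outside it, the 133 WT cells with 2 panel A genes that met the rule otherwise had Uchl1 at 476, Lin28a at 33.1, Kit at 13.2 and Prm1 at 7197 CPM, against a Prm1 level of 3904 CPM inside. In KO the 51 cells with 2 panel A genes had Lin28a at 6.27 CPM, and the members with 3 had it at 112 CPM. A further 493 WT and 215 KO cells carried 3 or more panel A genes but as many genes of another panel and were not members.

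The panel A genes, which chose the cells, are given as a description. Uchl1, a ubiquitin hydrolase of spermatogonia, was at 864 CPM in the WT and 749 CPM in the KO members, at 110 CPM in the leptotene to zygotene cells of either library, and at 14.9 and 12.8 CPM in pachytene cells. The transcription factor gene Dmrt1, which keeps spermatogonia in mitosis, was at 438 and 397 CPM, and Crabp1, a retinoic acid binding protein gene, at 257 and 176 CPM. Sohlh1, a transcription factor of differentiating spermatogonia, was at 152 and 141 CPM, the de novo DNA methyltransferase gene Dnmt3b at 117 and 93.1 CPM, and the zinc finger gene Sall4 at 44.7 and 50.2 CPM. The X-linked homeobox genes were less particular to the members. Rhox13 was at 225 CPM in the WT and 226 CPM in the KO members and at 238 and 276 CPM in leptotene to zygotene cells, and Esx1 was at 126 and 149 CPM in members and at 64.5 and 108 CPM in those cells. Panel B genes were not absent either, since the rule asked only for fewer of them. The meiotic cohesin gene Smc1b was at 388 and 402 CPM in members and at 1017 and 1142 CPM in leptotene to zygotene cells, whereas Meiob, which acts in meiotic recombination, was at 2.83 and 0.27 CPM against 123 and 113 CPM.

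Genes outside the rule that led the members over later germ cells were ranked as a description, since the ranking itself fixes that they are higher in the members. The 20 with the highest smallest ratio of members over both other cell groups in both libraries, among genes at 50 CPM or more, were led by Pramef12 (chr4:144391674-144408464 of GRCm38, minus strand), a gene of the PRAME family. It was at 50.9 CPM in the WT and 61.8 CPM in the KO members, at 0.33 and 1.04 CPM in leptotene to zygotene cells and at 0.54 and 0.23 CPM in pachytene cells. The D-type cyclin gene Ccnd2 (chr6:127125162-127152193, minus strand) was at 64.7 and 93.4 CPM in members and at 0.83 and 4.86 CPM in leptotene to zygotene cells. Lin28a (chr4:134003330-134018841, minus strand) was at 111 and 123 CPM in members, at 10.8 and 10.1 CPM in leptotene to zygotene cells and at 0.82 and 0.72 CPM in pachytene cells. Lin28a was thus not limited to the members among these cell groups.

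Several of the 20 belong to growth metabolism and mitosis. Shmt2 and Phgdh, enzymes of serine and one-carbon metabolism, were at 64.1 and 59.4 CPM in WT members against 9.67 and 8.83 CPM in leptotene to zygotene cells. Fasn, the fatty acid synthase, was at 114 CPM in the WT and 87.7 CPM in the KO members against 17.7 and 12.5 CPM. Cenpa, the centromeric histone H3 variant, was at 262 and 300 CPM against 48.7 and 46.5 CPM, the beta tubulin gene Tubb5 at 274 and 320 CPM against 43.8 and 30.9 CPM, and the mitotic regulator Rcc2 at 452 and 369 CPM against 65.3 and 49.7 CPM. The heparan sulphate proteoglycan Sdc4 was at 80.5 and 121 CPM against 14.8 and 10.1 CPM, and the small GTPase gene Rras at 74.7 and 65.8 CPM against 11.3 and 9.73 CPM. The others included Hnf4aos, Smagp, Rab26os, P3h3, Cox8a, Arrb2, Psmb10 and Fkbp9. Hnf4aos and Rab26os are each annotated as antisense to another gene, and where the counting ignored strand their reads could belong to those genes.

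**Figure D1:**
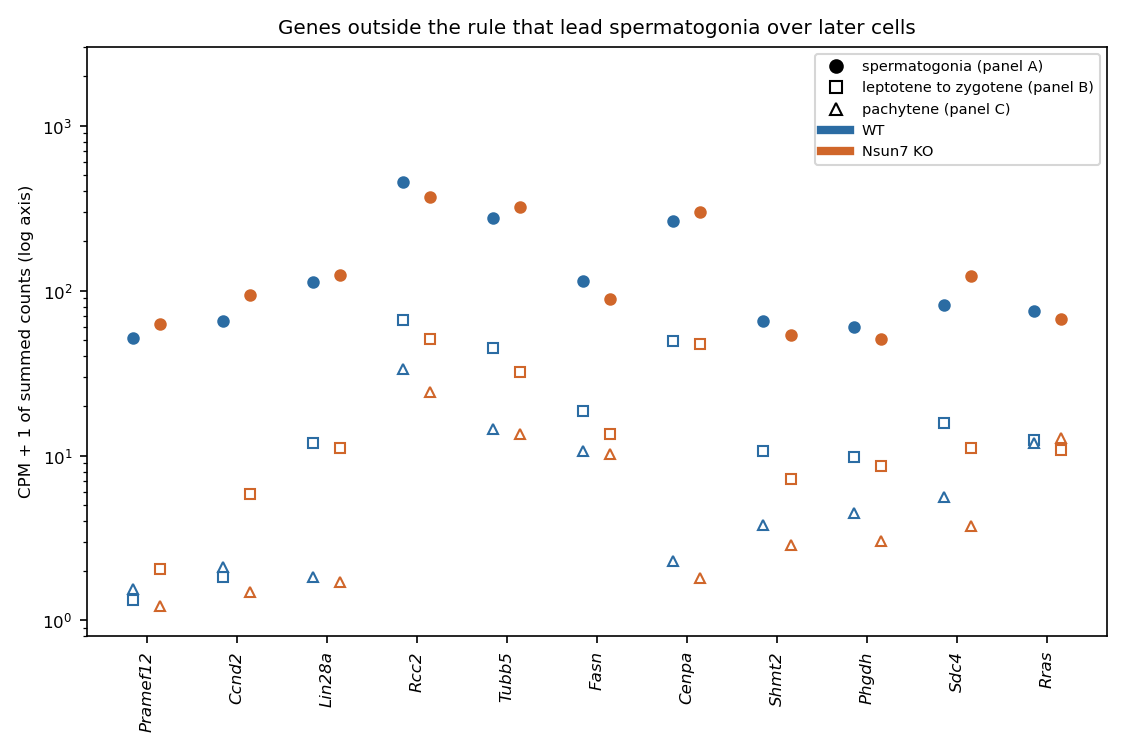
CPM plus 1 (log axis) of 11 of the 20 genes outside the rule that lead the members over later germ cells, in WT (blue) and Nsun7 KO (orange). Filled circles are spermatogonia, open squares leptotene to zygotene cells and open triangles pachytene cells. All filled circles lie above the open symbols of their library, as the choice of the genes requires, and Pramef12, Ccnd2 and Lin28a have pachytene levels near 1 on this axis.

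Gene lists for the functions of the germ line were set beside all genes whose mean over the members of both libraries reached 10 CPM. The same minimum held for the lists. None was set in the other cell groups, so genes found mainly there were left out, which favours higher over lower counts. Over pachytene cells, 42% of these 10123 genes were 2-fold or more higher in the members of both libraries and 15.7% were 2-fold or more lower. Against that, 15 of 17 measured genes of the undifferentiated and stem cell list were 2-fold higher and 0 lower, 19 of 24 genes of the differentiating list were higher and 2 lower, and 20 of 23 X-linked germ cell genes were higher and 0 lower. The replication list had 27 of 40 higher, the list of DNA methylation and chromatin repression 22 of 33, and the ribosome biogenesis list 20 of 30. The G2 and M phase list had 11 of 38 higher and 2 lower, a share below that of all genes. Its member Top2a had 366 CPM in WT members and 173 CPM in WT pachytene cells.

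The step from spermatogonia to early meiosis was smaller over all genes. Compared with leptotene to zygotene cells, 7.28% of genes were 2-fold or more higher in the members of both libraries and 5.18% were lower. Of the undifferentiated list 12 of 17 were higher, among them Ret at 21.4 and 35.9 CPM against 0.17 and 1.04 CPM, Egr4 at 37.9 and 61.3 CPM against 1.33 and 0.69 CPM, and Zbtb16, which maintains the stem cells, at 34.1 and 34.3 CPM against 1.17 and 1.74 CPM. Of the meiotic entry and axis list 0 of 23 were higher and 14 were lower. Sycp1 and Sycp3, components of the synaptonemal complex, were at 622 and 406 CPM in WT members against 2074 and 2214 CPM. Ribosome biogenesis genes were higher in 8 of 30 cases, for instance the nucleolar methyltransferase Fbl at 287 and 270 CPM against 93.2 and 99.4 CPM. Kit did not separate these stages by 2-fold in KO, at 74.8 CPM in members and 61.8 CPM in leptotene to zygotene cells. Dazl, an RNA-binding protein gene of the germ line, was lower in members, at 1402 and 1395 CPM against 1774 and 2025 CPM.

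The members formed 13 clusters when they were grouped without the genes of the rule, mitochondrial genes and Nsun7. A name was given only from fixed marker lists, and 2 clusters carried markers of undifferentiated spermatogonia among their 10 leading genes. Cluster genes describe how the cells were grouped and are not results. In this paragraph and the next ones values are CPM over the cells of both libraries. Cluster 5, with 40 WT and 29 KO cells, had Gfra1 at 206, Ret at 250, Id4 at 156, Etv5 at 106, Zbtb16 at 138 and Ccnd2 at 512 CPM, whereas Kit was at 4.41 and Stra8 at 67.7 CPM. Gfra1 had a count in 71.0% and Ret in 84.1% of its 69 cells. The neurofilament gene Nefm was at 216 CPM there and at no more than 3.92 CPM in any other cluster.

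Cluster 9, with 66 WT and 37 KO cells, had other genes of the undifferentiated list. Upp1 was at 198, Egr4 at 273, Nanos3 at 73.0, Sox3 at 352, Foxo1 at 288 and Neurog3 at 44.7 CPM, while Gfra1 was at 16.4 and Ret at 77.6 CPM. Sdc4 was at 492 CPM and had a count in 94.2% of the 103 cells. The 2 clusters differed in division genes as well. The proliferation marker Mki67 was at 9.13 CPM in cluster 9, compared with 82.4 in cluster 5 and 76.3 to 505 CPM in the other 6 clusters that lacked genes of other cell types. Kit stayed at 8.22 CPM in cluster 9 and was at 95.7 to 150 CPM in those 6 clusters, so that Kit was lower in the pair than in each of those 6.

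The other 6 clusters had Kit and differed in Stra8, cell cycle genes and meiotic genes. They have no name because fewer than 2 of the fixed markers stood among their leading genes. Cluster 4 (113 cells) had Stra8 at 1136 CPM with a count in 96.5% of cells and the highest Uchl1 level at 1486 CPM, with Ccnd2 at 144 CPM. Cluster 2 (201 cells) had Crabp1 at 471 and P3h3 at 260 CPM. Cluster 3 (105 cells) had the linker histone gene H1f0 at 245, E2f2 at 74.5, Lin28a at 284 and Pcna at 522 CPM, and its replication list summed to 7992 CPM, against 3327 CPM in cluster 9. Cluster 8 (60 cells) had the mitotic cyclin genes Ccnb1 at 718 and Ccna2 at 619 CPM, each with a count in 98.3% of its cells. Lin28a was at 290 CPM there, but 5 cells gave 69.1% of its counts and 40% of the cells had any. In cluster 3, 41.9% of the cells had a Lin28a count and 5 cells gave 37.4% of its counts.

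Cluster 1 (112 cells) led in G2 and M phase genes, with Top2a at 1115, Mki67 at 505 and Nusap1 at 363 CPM, and that list summed to 18860 CPM against 3802 CPM in cluster 9. Cluster 0 (156 cells) had the germ cell surface protein genes Tex101 at 952 and Ly6k at 288 CPM, the meiotic cohesin gene Rec8 at 85.8, Stra8 at 595 and Sycp1 at 1324 CPM. Tex101 had a count in 94.2% of its cells. Sycp1 was at 1474 CPM in cluster 1, above the level in cluster 0. Both values are sums over cells, and whether single cells held Sycp1 and mitotic genes together was not tested. The members thus included clusters with meiotic transcripts. Panel A genes, which give the cells their label, summed to 1847 CPM in cluster 0 and 1931 CPM in cluster 1, compared with 1489 CPM in cluster 5, 2338 CPM in cluster 9 and 2948 CPM in cluster 4, and panel B genes to 1698 and 1728 CPM compared with 405, 266 and 405 CPM. Rhox13, a gene of the rule, was at 530 CPM in cluster 0 and 50.2 CPM in cluster 9.

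The remaining 5 clusters held genes of other cell types or few counts. Cluster 10, with 12 WT cells and 0 KO cells, had Sertoli markers at a sum of 17541 CPM and Clu at 7908 CPM, and none of its cells was called a doublet. Cluster 11, with 38 WT and 25 KO cells, had condensing spermatid markers at 62812 CPM, and 50.8% of its cells were called doublets. Cluster 6, with 34 WT and 7 KO cells, had round spermatid markers at 2703 CPM and 14.6% called doublets. Cluster 7, with 80 WT and 23 KO cells, was led by the stroma gene Dcn and the Leydig gene Hsd3b1, but each of its 15 leading genes had a count in at most 10.7% of its cells, and the name does not describe most of them. Cluster 12, with 22 WT and 3 KO cells, had a median of 2015 counts per cell. The 5 clusters together held 186 WT members (22.9%) and 58 KO members (16.5%).

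**Figure D2:**
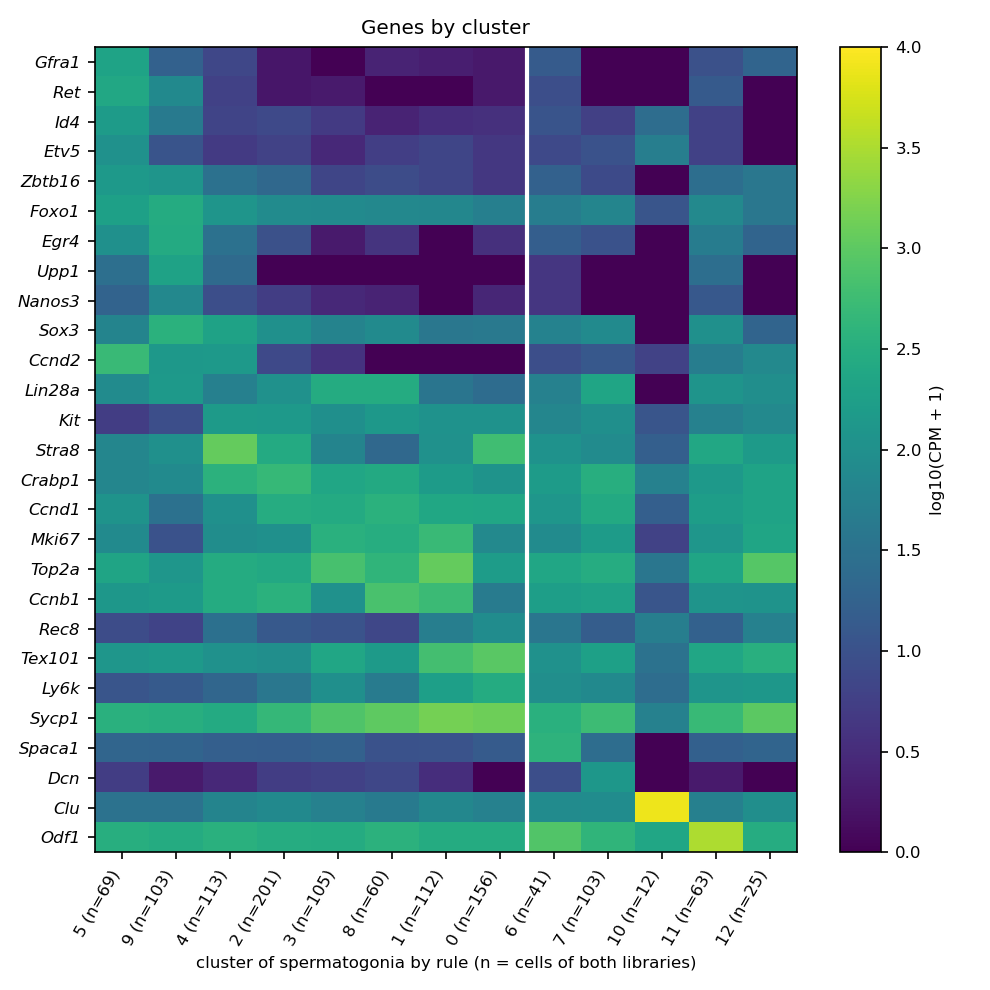
Level of 27 genes (log10 of CPM plus 1, colour) in the 13 clusters of spermatogonia, with the number of cells of both libraries under each column. The white line separates the 8 clusters on the left from the 5 on the right with genes of other cell types or few counts. Gfra1, Ret, Id4 and Etv5 peak in cluster 5, Upp1, Egr4 and Nanos3 in cluster 9, Stra8 in cluster 4, Top2a in cluster 1, Tex101 in cluster 0, Clu in cluster 10.

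Cluster sizes were compared between the libraries only where the leading genes of a cluster were alike in both. In clusters 0 and 1, 0 of 15 leading genes were 1.5-fold or more apart between the libraries, and in clusters 5 and 9 it was 1 of 15 each (Nid1 and Ces4a). In clusters 2, 3, 4 and 8 it was 6 of 15 each, and their sizes are not compared. Cluster 5 held 4.93% of WT members (3.55 to 6.66) and 8.24% of KO members (5.59 to 11.6), and cluster 9 held 8.14% (6.35 to 10.2) and 10.5% (7.51 to 14.2). Cluster 1 held 8.88% (7.01 to 11) and 11.4% (8.24 to 15.2), and cluster 0 held 11.6% (9.47 to 14.0) and 17.6% (13.8 to 22.0). All 4 shares were higher in KO, and the intervals of each pair overlapped.

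The 2 undifferentiated-like clusters together held 106 of 811 WT members (13.1%, 10.8 to 15.6) and 66 of 352 KO members (18.8%, 14.8 to 23.2), a KO to WT ratio of 1.43 (1.04 to 1.97). As a share of all kept cells the order was the opposite, 0.70% in WT and 0.48% in KO. The ratio within members depended on how the clusters were made. With each library clustered on its own, 123 WT and 47 KO members were undifferentiated-like, and the ratio was 0.880 (0.615 to 1.24). A higher undifferentiated-like share in KO was thus not stable to this choice.

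**Figure D3:**
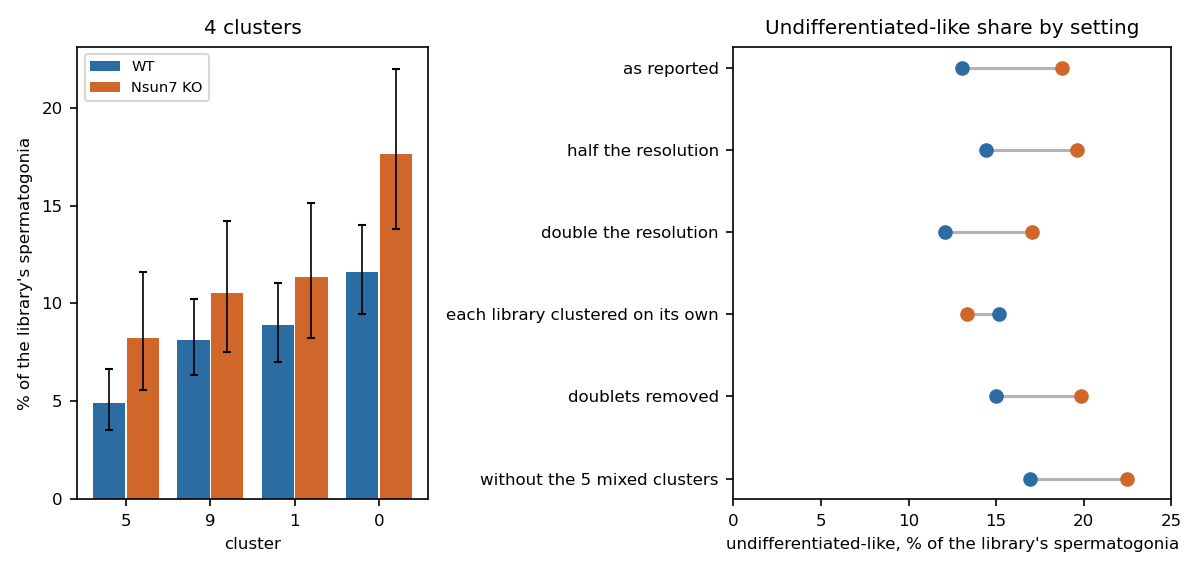
Left, percent of each library's spermatogonia in clusters 5, 9, 1 and 0 (WT blue, Nsun7 KO orange), with exact 95% intervals of counting error. Right, the undifferentiated-like percent of each library's spermatogonia under 6 ways of filtering or clustering. The KO share is the higher one in 5 of 6 settings and the lower one, 13.4% against 15.2%, after separate clustering of the libraries.

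Levels within clusters are given by library as a description. The clusters were made from both libraries together, and clusters 5 and 9 were compared because their leading genes were alike. Similar levels of those genes are thus largely fixed by the choice. In cluster 5, Gfra1 was at 225 CPM in WT and at 188 CPM in KO, Ret at 234 and 265 CPM, Id4 at 156 and 156 CPM, and Ccnd2 at 523 and 502 CPM. In cluster 9, Egr4 was at 257 and 294 CPM, Ret at 79.1 and 75.6 CPM and Upp1 at 226 and 162 CPM, while Ccnd2 was at 90.4 CPM in WT and at 187 CPM in KO. In cluster 4, Stra8 was at 1151 and 1097 CPM.

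The targeted gene was lower in the knockout library. Nsun7 (chr5:66259897-66298026, plus strand) had 188 counts in WT members, 26.6 CPM (22.9 to 30.7), and 24 counts in KO members, 6.48 CPM (4.15 to 9.64), a fold of 0.243 (0.152 to 0.373). A count was found in 17.4% of WT and 5.97% of KO members, and after thinning to 2000 counts in 5.28% and 1.19%. The thinned share in pachytene cells was 33.6% and 9.59%, at median depths of 16752 and 8537.5 counts per cell before thinning. The level in WT members was below that of the other stages, with 55.7 CPM in leptotene to zygotene cells, 215 CPM in pachytene cells and 174 CPM over all kept cells. The WT library at large could supply 18.9 CPM of Nsun7 to the members as free RNA, from the level of Leydig genes in them, so that how much of the WT value came from spermatogonia was not tested. By cluster the WT level lay between 16.9 CPM (cluster 1) and 57.3 CPM (cluster 11, the one with condensing spermatid genes) and the KO level between 0 and 15.8 CPM over the 10 clusters compared. The deleted part of the gene is not in the labels, and whether the counts left in KO lie outside it was not tested.

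Between the libraries the number of genes that differed by 2-fold in the members depended on the cell filter. Of 4348 genes whose mean reached 50 CPM, 6 were 2-fold or more higher in KO (0.138%) and 9 were 2-fold or more lower (0.207%), on a scale with 5 CPM added to each value. With the stricter cell filter 165 genes were higher, the 6 among them, and 1 was lower, which was none of the 9, and with free RNA subtracted 64 were higher and 8 lower. The median log2 ratio over these genes was -0.03. The 9 lower genes differed more than any higher gene, and 4 of them (Clu, Cst12, Cst9 and Aard) are on the list of markers of Sertoli cells, the somatic nurse cells of the tubule. Clu was at 290 CPM in WT (278 to 303) and at 32.1 CPM in KO (26.6 to 38.4), Sparc at 197 and 33.2 CPM, Cst12 at 94.0 and 23.2 CPM, Cst9 at 91.4 and 30.2 CPM, Aard at 94.5 and 28.6 CPM, and Defb19 at 111 and 41.0 CPM. The sum of the 12 Sertoli markers was 673 CPM in WT and 154 CPM in KO members, while over all kept cells it was 488 and 305 CPM. All 12 had a count in WT, and 1 had none in KO.

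These counts were concentrated in few cells. In WT, 5 cells gave 45.5% of the Clu counts and 42.7% of the Sparc counts, compared with a median of 6.43% for genes at 50 CPM or more. The 12 WT cells of cluster 10 held 1545 of the 2050 Clu counts and 1062 of the 1393 Sparc counts of WT members. For Cst12 these cells held 486 of 664 counts, for Cst9 483 of 646, for Aard 454 of 668 and for Defb19 530 of 785. Without the 5 clusters with genes of other cell types or few counts, which left 625 WT and 294 KO members, Clu was at 71.2 and 28.7 CPM, Sparc at 37.3 and 28.7 CPM, and the Sertoli sum at 173 and 124 CPM. Under that restriction 1 gene was 2-fold higher in KO and 5 were lower, and 1 gene of each direction was among the original ones. The lower genes not among the original ones were Ropn1l at 155 and 70.8 CPM, Ldhal6b at 84.4 and 31.0 CPM, Cox8c at 75.5 and 33.7 CPM, and the predicted gene Gm50253 at 83.5 and 27.4 CPM. Clu and Slc2a3 still had log2 ratios of -1.18 and -1.24 and left the calls because their means fell below the minimum of 50 CPM.

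Rsph1, a radial spoke head protein gene of motile cilia, was the lower gene still called under the restriction. It was at 129 CPM in the WT members (121 to 138) and 48.0 CPM in the KO members (41.2 to 55.6), a fold of 0.371 (0.314 to 0.437). With the restriction it was at 112 and 30.4 CPM. Its level was lower in KO in each of the 10 clusters compared, for example 105 against 14.7 CPM in cluster 0 and 124 against 28.4 CPM in cluster 4. The same direction held for the whole libraries, where Rsph1 was at 1230 CPM in WT and at 286 CPM in KO, and for pachytene cells, where it was at 2262 and 1717 CPM. The estimate of free RNA for Rsph1, from the level of Leydig genes, was 134 CPM in WT and 17.6 CPM in KO. The WT estimate was above the level in WT members, so the subtraction left no WT counts. The log2 ratio then turned to 2.90, a value that rests on the prior of 5 CPM. The glucose transporter gene Slc2a3 also changed direction, though its WT estimate of 59.6 CPM was below its level. It was at 75.4 and 25.9 CPM in members, at 70.0 and 26.7 CPM with the restriction, and at a log2 ratio of 0.18 after the subtraction. The ninth lower gene was Tmsb4x, an actin-binding peptide gene, at 110 and 38.1 CPM. In WT, 5 cells gave 32.3% of its counts, and with the restriction it was at 39.6 and 28.4 CPM, a fold of 0.716 (0.550 to 0.924), which is no longer a call.

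The 10 genes with the highest KO to WT ratios were Prkcq, Asb17, Capza3, Cstl1, Chn2, Tmco2, Cypt1, Hils1, Izumo2 and Spata19, several of them known from spermatids, and all 10 were also higher in KO over all kept cells. Hils1, a spermatid linker histone gene, was at 120 CPM in the WT members (112 to 128) and 242 CPM in the KO members (226 to 258). Asb17 was at 31.3 and 73.9 CPM, Capza3, an actin capping protein gene of sperm, at 31.1 and 72.6 CPM, and Spata19, a sperm mitochondrial protein gene, at 106 and 198 CPM. The 4 genes Prm1, Prm2, Tnp1 and Tnp2 summed to 12034 CPM in WT and 18444 CPM in KO members, and to 74993 and 165374 CPM over all kept cells. Hils1 followed the same direction over all kept cells, at 749 and 1350 CPM. The 12 round spermatid markers summed to 395 CPM in WT and 503 CPM in KO members. Over all kept cells their order was the opposite, at 2407 and 2192 CPM. It was also the opposite without the 5 clusters, at 257 and 194 CPM, while Prm1, Prm2, Tnp1 and Tnp2 then summed to 6667 and 10557 CPM. The 10 genes thus do not stand for all spermatid genes. In KO, 5 cells gave 49.8% of the Hils1 counts and 48.6% of those of Tmco2. Without the 5 clusters Hils1 was at 63.9 and 77.4 CPM, a fold of 1.21 (1.02 to 1.43). The other genes of the set did not all move so far. Asb17 was then at 16.8 and 35.7 CPM, a fold of 2.13 (1.59 to 2.84), Cstl1 at 23.2 and 46.7 CPM, a fold of 2.01, and Capza3 at 20.6 and 41.1 CPM, a fold of 1.99, while the fold was 1.64 for Chn2, 1.65 for Izumo2, 1.35 for Spata19, 1.24 for Tmco2 and 1.23 for Cypt1.

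Prkcq, which encodes protein kinase C theta, was the 1 higher gene still called with the restriction, under which Asb17, Cstl1 and Capza3 had means below the minimum of 50 CPM and could not be called. It was at 52.6 CPM in WT (47.4 to 58.3) and at 124 CPM in KO (113 to 136), and at 40.4 and 95.5 CPM without the 5 clusters. Of its 461 KO counts, 73 came from 1 cell and 43.6% from 5 cells. By cluster the KO level ranged from 21.9 CPM in cluster 4 to 356 CPM in cluster 2, and in clusters 4, 5 and 9 it was below the WT level. The difference thus did not hold in every cluster.

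**Figure D4:**
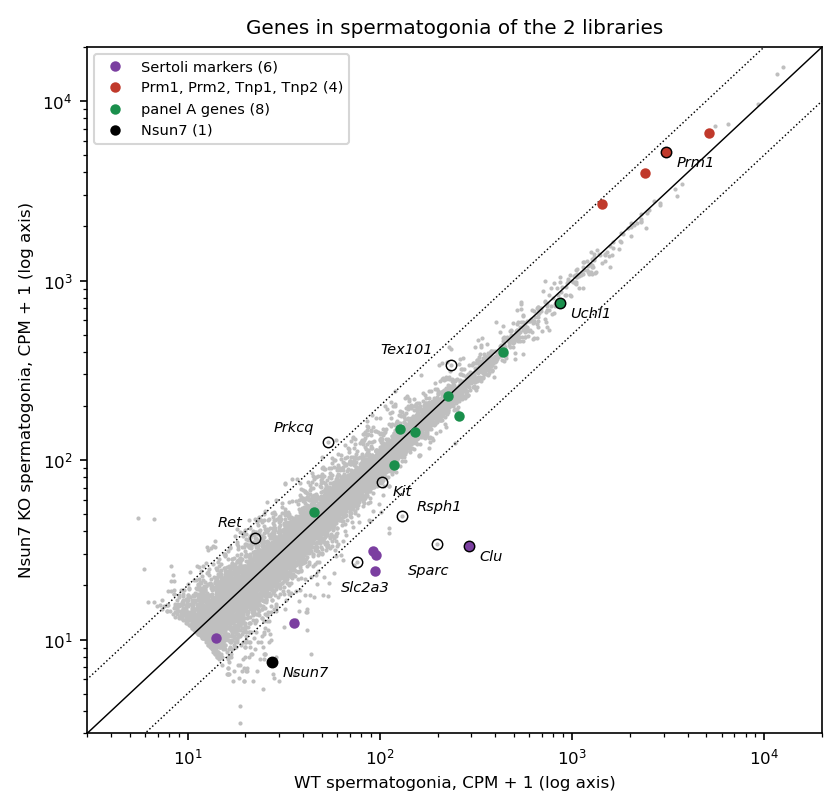
Level in WT (x axis) and Nsun7 KO spermatogonia (y axis), CPM plus 1 on log axes, of each gene whose mean reached 10 CPM, 1 grey point per gene, and of Nsun7. The solid line marks equal levels and the dotted lines 2-fold. Panel A genes (green) lie near the solid line, 6 Sertoli markers (purple) and Nsun7 (black) lie below it, and the 4 condensing spermatid genes (red) above it.

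Few genes of the lists of germ line functions were called between the libraries. At a minimum of 10 CPM, 2.83% of 10123 genes were 1.5-fold or more higher in KO and 2.43% were lower, with a median log2 ratio of -0.04. Of the 371 genes measured over the 17 lists, 2 were higher and 6 lower, and with the stricter cell filter 13 and 24 of 369.

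In the undifferentiated list 2 of 17 genes were 1.5-fold higher and 0 lower, with a median of 0.11. Ret was at 21.4 and 35.9 CPM, a fold of 1.68 (1.32 to 2.13), and Egr4 at 37.9 and 61.3 CPM. In KO, 5 cells gave 31.6% of the Ret counts, compared with 15.9% in WT. A Ret count was found in 10.1% of WT and 13.9% of KO members. In thinned cells the order was the opposite, at 4.09% (2.80 to 5.76) and 2.38% (1.03 to 4.64), and the intervals overlapped. The thinned shares for Gfra1 were 2.37% in WT and 4.76% in KO. Gfra1 was at 15.3 and 22.1 CPM and Id4 at 15.6 and 24.0 CPM, whereas Sox3 was at 120 and 110 CPM and Zbtb16 at 34.1 and 34.3 CPM. Ret and Egr4 are genes of clusters 5 and 9. The undifferentiated-like share was the larger in KO in the joint clustering and the smaller with each library clustered on its own. Whether this share bears on their levels was not tested. In the differentiating list 0 of 24 were called, with a median of 0.03. Kit was at 102 CPM in WT and at 74.8 CPM in KO, a fold of 0.731 (0.634 to 0.840), the lowest of the list, and Ccnd2 at 64.7 and 93.4 CPM, a fold of 1.44 (1.25 to 1.66), the highest. Dazl was at 1402 and 1395 CPM. By cluster Kit was at 133 and 88.2 CPM in cluster 0, 129 and 73.3 CPM in cluster 1, 146 and 106 CPM in cluster 2 and 156 and 133 CPM in cluster 4, while in cluster 3 it was at 93.9 and 103 CPM.

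Of the retinoic acid list 0 of 14 genes were higher and 2 lower, with a median of -0.06. The retinaldehyde dehydrogenase gene Aldh1a1 was at 27.9 and 13.5 CPM and the retinol dehydrogenase gene Rdh11 at 36.4 and 20.8 CPM, while Stra8, the target that marks entry into differentiation, was at 338 and 329 CPM. Aldh1a1 is also made by somatic cells of the testis, and with a minimum of 2 panel A genes its log2 ratio was 0.76. Without the 5 clusters it was at 14.4 and 13.0 CPM, a fold of 0.902 (0.598 to 1.34), and no longer called, whereas Rdh11 was at 32.7 and 14.0 CPM. In the meiotic entry list 0 of 23 were called, with a median of 0.01. Tex101 was at 234 and 338 CPM, the highest ratio of the list, and Sycp1 at 622 and 687 CPM. The X-linked germ cell genes had 0 of 23 called and a median of 0.08, with the meiotic transcription factor gene Taf7l at 517 and 522 CPM and Tex11 at 236 and 236 CPM. The Y-linked list had 0 of 5 called, among them the translation factor gene Eif2s3y at 102 and 90.7 CPM.

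The replication list had 0 of 40 genes called, with a median log2 ratio of -0.14 against -0.04 for all genes. Hells, a chromatin remodeler gene, was at 589 and 493 CPM, the sliding clamp gene Pcna at 304 and 255 CPM, the helicase gene Mcm2 at 250 and 212 CPM and the licensing factor gene Cdc6 at 56.2 and 40.5 CPM. The median lay between -0.25 and -0.08 in the settings tried, and the median over all genes is not given for those settings. The value of -0.25 came with the stricter cell filter, under which the ribosome biogenesis list also had a median of -0.25. The G2 and M phase list had 0 of 38 called and a median of -0.03, with the chromatin protein gene Hmgb2 at 2032 and 1767 CPM, Mki67 at 160 and 150 CPM and the kinetochore gene Nuf2 at 81.8 and 56.4 CPM. In cells thinned to 2000 counts, Pcna had a count in 46.6% of WT (43.0 to 50.2) and 40.8% of KO members (35.5 to 46.2), Top2a in 41.3% and 35.7%, and Mki67 in 24.5% and 24.1%. In thinned pachytene cells Mki67 had a count in 2.20% and 1.60%. Thinning left out 53 WT and 16 KO members, and before it the Pcna shares were 76.7% and 76.4%.

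Of the G1 list 1 of 21 genes was lower, the cyclin gene Ccne1 at 26.5 and 15.7 CPM, while Ccnd1 was at 204 and 165 CPM. The RNA m5C list, with writers and readers of 5-methylcytosine, had 1 of 16 lower, which was Nsun7. Its paralog Nsun2 was at 121 and 114 CPM, and the reader genes Ybx1 and Ybx2 were at 928 and 832 and at 334 and 434 CPM. Ribosome biogenesis had 0 of 30 called and a median of -0.08, with nucleolin (Ncl) at 1746 and 1489 CPM, and translation 0 of 29 and -0.06. The growth factor list had 1 of 29 higher, which was Ret. The piRNA list had 1 of 18 lower, Tdrd6 at 27.0 and 13.8 CPM, and its log2 ratio was 1.47 after the free RNA subtraction. The immediate early list had 1 of 15 lower, Jun at 27.9 and 14.8 CPM. In WT, 5 cells gave 32.0% of the Jun counts, and without the 5 clusters it was at 16.8 and 15.4 CPM, a fold of 0.914 (0.627 to 1.32), and no longer called. The lists of DNA methylation (0 of 33) and of p53 and apoptosis (0 of 21) had no gene called, at medians of -0.02 each.

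The promoters of the division genes are shown because G2 and M phase genes were among the leading genes of clusters 1 and 8. The replication list had its highest sum in cluster 3 among the clusters without genes of other cell types or few counts. No gene of that list was among the leading genes of cluster 3. They are the bases upstream of the start site from RefSeq's table for GRCm38.p6, read 5′ to 3′ on the strand of the gene. The 5 genes of the G2 and M phase list and the 4 of the replication list with the highest levels among those with an entry are given. Capitals mark CCAAT and, in the first 5, TTTGAA, the letters of the cell cycle homology region, or, in the last 4, GCGGGAA, letters of an E2F site, on either strand.
Hmgb2, chr8:57511693-57511842, plus strand: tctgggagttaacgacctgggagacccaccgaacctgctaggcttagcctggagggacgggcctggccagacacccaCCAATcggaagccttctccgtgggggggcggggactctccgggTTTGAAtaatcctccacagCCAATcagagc
Top2a, chr11:99024190-99024339, minus strand: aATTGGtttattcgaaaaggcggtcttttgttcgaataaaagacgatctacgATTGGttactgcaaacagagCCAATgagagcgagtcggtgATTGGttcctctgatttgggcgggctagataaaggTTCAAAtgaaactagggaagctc
Cenpa, chr5:30666736-30666885, plus strand: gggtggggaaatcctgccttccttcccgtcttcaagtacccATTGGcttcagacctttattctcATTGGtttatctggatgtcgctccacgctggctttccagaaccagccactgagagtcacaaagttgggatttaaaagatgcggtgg
Cenpf, chr1:189688087-189688236, minus strand: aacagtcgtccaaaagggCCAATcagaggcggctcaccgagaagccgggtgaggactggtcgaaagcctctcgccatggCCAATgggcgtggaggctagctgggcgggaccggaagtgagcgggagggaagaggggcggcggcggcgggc
Ccnb1, chr13:100786487-100786636, minus strand: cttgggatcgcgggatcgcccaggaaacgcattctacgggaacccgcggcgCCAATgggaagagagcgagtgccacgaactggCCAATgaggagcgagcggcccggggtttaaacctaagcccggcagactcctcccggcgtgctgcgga
Hells, chr19:38930840-38930989, plus strand: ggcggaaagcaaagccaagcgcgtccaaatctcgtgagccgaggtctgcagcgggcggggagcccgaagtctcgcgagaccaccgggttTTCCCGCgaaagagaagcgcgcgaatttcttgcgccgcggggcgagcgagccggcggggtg
Pcna, chr2:132253181-132253330, minus strand: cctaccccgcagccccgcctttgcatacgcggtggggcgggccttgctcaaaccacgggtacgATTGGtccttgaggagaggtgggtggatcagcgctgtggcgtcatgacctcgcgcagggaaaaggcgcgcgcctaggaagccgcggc
Mcm7, chr5:138171884-138172033, minus strand: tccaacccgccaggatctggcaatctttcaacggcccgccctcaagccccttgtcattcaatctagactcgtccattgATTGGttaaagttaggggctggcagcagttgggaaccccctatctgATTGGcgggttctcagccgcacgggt
Dut, chr2:125247365-125247514, plus strand: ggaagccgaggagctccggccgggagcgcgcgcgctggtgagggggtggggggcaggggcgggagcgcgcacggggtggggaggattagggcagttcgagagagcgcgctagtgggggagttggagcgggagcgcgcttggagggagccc

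Within 250 bases before the start, on both strands, CCAAT stood in 25 of 33 promoters of the G2 and M phase list (75.8%) and in 19 of 32 of the replication list (59.4%), compared with 37.7% of 3301 promoters of genes at 50 CPM or more in the members and 34.5% of all 27025. TTTGAA stood in 14 of 33 G2 and M phase promoters (42.4%), in 4 of 32 replication promoters (12.5%), in 10.3% of those of expressed genes and in 16.3% of all. GCGGGAA stood in 0 of 33, in 11 of 32 (34.4%), in 8.45% and in 3.84%. In the 150 bases shown, Top2a had CCAAT 4 times and TTTGAA once, Hmgb2 had CCAAT at 2 places and TTTGAA once, Hells had GCGGGAA once, and Dut had none of them. None of the 3 motifs contains another. A match describes the sequence and is not evidence of a bound factor, and the motifs were among 8 searched and were picked for print after their shares were seen.

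Outside the genes of the rule, X-linked genes gave 2.14% of the counts of WT members (2.13 to 2.15) and 2.15% of those of KO members (2.13 to 2.16). The leptotene to zygotene cells had 2.14% and 2.45%, and the pachytene cells, in which the sex chromosomes are silenced, 0.58% and 0.77%. Of the X-linked genes at 50 CPM or more in members, 105 of 114 in WT (92.1%) and 99 of 113 in KO (87.6%) were 2-fold or more higher there than in pachytene cells. The shares were 46.3% and 48.7% of autosomal genes and 47.8% and 49.9% of all genes. In each case the minimum was set in the members alone, which favours genes higher in them. Mageb4 was at 281 and 264 CPM in members and at 2.70 and 1.44 CPM in pachytene cells. Across the 8 clusters without genes of other cell types, the X-linked share was lowest in cluster 2, at 1.90% over both libraries, and highest in cluster 0, at 2.62%. In cluster 0 it was 2.60% in WT and 2.63% in KO, and in cluster 2 it was 1.90% and 1.89%, so the order of these clusters held in both libraries.

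**Figure D5:**
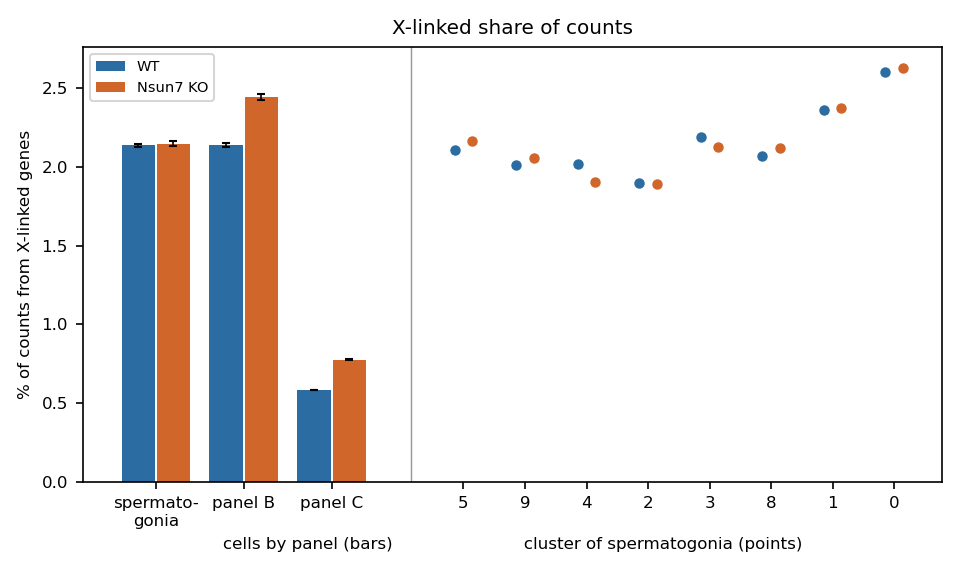
Percent of counts from X-linked genes outside the rule in WT (blue) and Nsun7 KO (orange). Bars are cells by panel with exact 95% counting intervals, and points are the 8 clusters of spermatogonia without genes of other cell types. Spermatogonia have 2.14% and 2.15% and pachytene cells 0.58% and 0.77%, and cluster 0 has the highest points.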

How the data were processed

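Counts per gene and cell were deposited by the authors as a sparse matrix for each library, written by PISA 0.12 per the file headers, on GRCm38 per the submitters' processing notes. Aligner, annotation and barcode filter: not given in the sources used here. Each of the 16376 WT and 16837 KO barcodes has 1001 or more counts. Members were found as stated in the report. Counts of members were summed per library and divided by their total (CPM). Folds carry exact conditional binomial intervals, CPM exact Poisson intervals and shares Clopper-Pearson intervals, all at 95% and for counting error only. No test between genotypes was possible with 1 library each. Ratios used a prior of 5 CPM. A gene was called at 2-fold with a mean of 50 CPM or more, and a list member at 1.5-fold with a mean of 10 CPM or more.

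Genes were named by rule: Nsun7 and m5C genes, the panel genes, the 10 highest and 10 lowest ratios that kept their sign in members with 3 and with 4 or more panel A genes, the 20 genes leading over both other cell groups, and the extreme and up to 6 of the most abundant members of each list. Predicted, mitochondrial and ribosomal protein genes were left out of the ranked sets. Other genes in the text (cluster markers, and genes given for a role) were chosen after their values were seen. The members and lists were chosen with earlier results of these data known. The clustering settings, the naming rule for clusters, the set of 5 clusters left out and the promoter motifs were chosen after seeing these data.

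Clusters came from Leiden clustering (scanpy 1.11.5) on 2000 variable genes, 20 principal components and 15 neighbours at resolution 1. Doublets were called per library by Scrublet and kept. Free RNA was estimated from 7 Leydig genes, whose level in members was 10.9% (WT) and 6.16% (KO) of that in all kept cells. It was subtracted only as an alternative. A gene whose estimate exceeded its level was then left with no counts, so its ratio rests on the prior of 5 CPM. Thinning was to 2000 counts for shares and 3000 for the rule. Of 30052 gene symbols 97.5% were found in the GRCm38 annotation. The calling script was tested on simulated data. Some genes that the naming rule selects are not reported here.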

Additional observations from a re-analysis of the deposited data

Results flagged for a closer look

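Some barcodes outside the members met the panel rule. Above the limit of 20% mitochondrial counts, 85 WT and 103 KO barcodes met the panel rule and were not analysed as members. Their median mitochondrial share was 26.8% in WT and 25.8% in KO. The KO barcodes had Uchl1 at 531 CPM and Lin28a at 306 CPM, and the WT barcodes had Uchl1 at 415 CPM and Lin28a at 71.7 CPM. Other genes were lower than in members with 4 or more panel A genes, among them Ccnd2 at 5.64 CPM in KO (91.3 CPM in those members) and 27.3 CPM in WT (64.7 CPM), and Stra8 at 181 CPM in KO (342 CPM) and 112 CPM in WT (356 CPM). With no mitochondrial limit there would be 896 WT and 455 KO members. No group had more than 1 library, so no library could be compared with replicates of its own group.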

How the results depend on the processing

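No paired analysis was possible because there is 1 library per genotype and no replicate number, and for the same reason no replicate could be left out. The KO to WT ratio of the member share was 0.278 under the stricter cell filter (500 genes, 10% mitochondrial counts), which left 459 WT and 119 KO members, and lay within its counting interval under the other alternatives. The count of genes 2-fold higher in KO was 6 as reported, and it was 165 with the stricter filter, 64 with free RNA subtracted, 24 at a minimum of 10 CPM, 2 with a minimum of 4 panel A genes, 2 with equal weight of cells, 1 with the rule after thinning, 1 without the 5 clusters, 0 with a prior of 20 CPM and 0 at 200 CPM. The count of lower genes was 9 as reported, and it was 69 at 10 CPM, 5 without the 5 clusters (1 of the 9 among them), 1 with the stricter filter (none of the 9) and 0 at 200 CPM. Similar counts could hold other genes. The rule after thinning gave 10 lower genes with 2 of the 9, a minimum of 4 panel A genes 8 with 3, and equal weight of cells 9 with 4. With doublets removed 7 genes were higher, 2 of the 6 among them, while all 9 lower genes stayed. Trimmed mean scaling kept all 6 and all 9. The 2 higher genes with equal weight of cells were none of the 6. The count of higher list genes was 2 as reported, and it was 13 with the stricter filter, 8 each with thinning, without the 5 clusters, with free RNA subtracted and with a prior of 1, 4 with trimmed mean scaling, 1 with a minimum of 2 panel A genes, 1 with no mitochondrial limit, and 0 with a prior of 20, at 50 CPM or at 200 CPM. The count of lower list genes was 6 as reported, and it was 24 with the stricter filter, 2 with free RNA subtracted, 1 with a prior of 20, and 0 at 50 or 200 CPM. Fewer genes are tested at a higher minimum, and otherwise the cause was not tested.

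The X-linked share moved from 2.14% to 2.16% (stricter) and 2.12% (without the 5 clusters) in WT, and from 2.15% to 2.17% (doublets removed), 2.22% and 2.19% in KO. The undifferentiated-like ratio reversed to 0.880 with each library clustered on its own. Log2 ratios that reversed were those of Cst9 (0.053 stricter, 0.24 thinned, 0.14 without the 5 clusters), Defb19 (0.13 without the 5 clusters), Slc2a3 (0.18), Rsph1 (2.90) and Tdrd6 (1.47) with free RNA subtracted, Aldh1a1 (0.76 with a minimum of 2) and Jun (0.16 stricter, 0.42 thinned). Over the named genes, 1408 values stayed within the counting interval of the reported fold, 250 moved outside it and 10 reversed. Only genes 1.5-fold or more apart as reported could count as reversed. A smaller ratio could thus change sign without being counted. The Nsun7 fold stayed between 0.238 and 0.333 under the alternative choices of cells. This range does not cover the alternatives that change the values, such as the subtraction of free RNA. Without the 5 clusters and with no mitochondrial limit were alternatives chosen after seeing the data.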

Other observations

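Single cells carried much of the count of a few genes. In cluster 4, Adgrg2 led the ranking because 97.1% of its counts came from 5 cells, and 160 counts from 1 cell. In cluster 8, Fa2h had 99 of its 102 counts in 1 cell. Over all KO members, 25 of 4348 genes at 50 CPM or more (0.575%) had at least 50% of their counts in 5 cells, and in WT members 0 did. These values are given without an explanation, and what set those cells apart was not tested.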
